A study of Mus musculus with 10 samples.

Results

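Retinoid storage, oxidation and response genes were examined in the livers of 10 mice, each measured on 1 Affymetrix Mouse Gene 2.0 array. The group holds 9 of the 22180 genes with a probe set of their own, namely *Rbp4*, *Lrat*, *Aldh1a1*, *Rdh16*, *Dhrs9*, *Cyp26a1*, *Cyp26b1*, *Rarb* and *Rarres1*. They were chosen for their roles in vitamin A biology with the difference between control and knockout livers already known. Genotype differences of these 9 genes are therefore given as a description and without a p-value. Which of them were called, also under other settings, is stated with nothing read from it. Each gene has 1 probe set that carries its symbol alone, and no gene was removed by a filter.

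The 4 control mice were Cre-negative *Vps33b* fl/fl animals, labelled wild type (males 1 and 2 and females 3 and 4), and the 6 knockout mice were *Vps33b* fl/fl-AlfpCre animals, labelled as liver-specific knockouts (males 1, 2 and 3 and females 4, 5 and 6). AlfpCre recombines in hepatocytes and cholangiocytes, so other liver cells, the stellate cells that store retinoid among them, keep intact *Vps33b* alleles. All mice of both groups were on a C57BL/6J background and were fed chow with 0.5% cholic acid, which the labels start at 10 weeks of age and continue for 2 weeks, while the methods give an earlier start and a longer feeding. The study asked how gene expression in liver differs once *Vps33b*, which encodes a protein of apical membrane trafficking, is deleted.

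*Vps33b* itself had log2 values of 9.12 to 9.15 in control and 8.92 to 9.39 in knockout mice (difference 0.08, standard error 0.09). The loxP sites flank only part of the gene, and which exons that probe set covers was not stated, so this value checks no label. The paper reports that hepatocytes of such knockout mice lacked *Vps33b* expression by in situ hybridisation and Western blotting. Y-linked transcripts fitted the labelled sex of 10 of 10 mice. In females, which lack them, 3 such genes read 3.38 to 4.51 on the log2 scale, which shows where probe sets without target lie. Hepatocyte markers averaged 12.89 to 12.93 per control mouse and 12.75 to 12.84 per knockout mouse, without overlap, and 0 of 8 of them passed the limma test over all genes (2 at an unadjusted p under 0.05). For genotype, 3841 of all 22180 genes had an unadjusted p under 0.05 in limma.

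Most vitamin A of the body is held in the liver. Retinol is esterified by LRAT and stored in stellate cells, and leaves the liver on the carrier RBP4, which hepatocytes secrete. Within cells retinol is oxidised in a first step by dehydrogenases of the RDH and DHRS families and in a second step by aldehyde dehydrogenases of the ALDH1A family, which make retinoic acid. Retinoic acid binds the receptors RARA, RARB and RARG, which act as pairs with RXR proteins on DNA, and is broken down by the CYP26 enzymes. *Cyp26a1* and *Rarb* are textbook targets of these receptors.

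Carrier and storage genes were at like levels in both genotypes. *Rbp4* on chromosome 19 (probe set 17364341) had log2 values of 13.31, 13.31, 13.30 and 13.33 in control mice 1 to 4. In knockout mice it was at 13.26, 13.33 and 13.35 in the males and 13.33, 13.32 and 13.31 in the females. The groups overlapped, with a difference, knockout minus control, of 0.01 (standard error 0.06, 95% interval -0.13 to 0.14). *Rbp4* lay higher than 99.9% of genes, and the highest log2 value on any array was 14.05. *Lrat*, the lecithin retinol acyltransferase (chromosome 3, probe set 17406247), was at 8.05, 8.02, 8.52 and 8.08 in control mice 1 to 4. It was at 7.97, 8.01 and 8.14 in knockout males and 8.20, 8.25 and 7.59 in knockout females. The groups overlapped, and the difference was -0.14 (standard error 0.14, 95% interval -0.44 to 0.16). It was -0.02 without control 3, the highest mouse, and -0.03 without knockout 6, the lowest. In bulk liver RNA, fewer cells of a type and less RNA per cell cannot be told apart. The 12 stellate cell markers averaged 7.73 to 8.06 per control mouse and 7.87 to 8.07 per knockout mouse, and of them *Pdgfrb*, the platelet-derived growth factor receptor beta, passed as higher (0.71, limma adjusted p = 0.0357), none passed as lower and 11 did not pass. Of the 12, 8 had an unadjusted p under 0.05, in both directions. Besides *Pdgfrb*, the higher ones were *Rgs5* at 0.47 (limma adjusted p = 0.0509), above every control in every knockout mouse, and *Des* at 0.35 (0.0527). *Ngfr* at 0.54 (0.119) and *Hgf* at 0.22 (0.248) were also higher. The lower ones were *Colec10*, a collectin, at -0.65 (limma adjusted p = 0.0509), and *Ecm1*, an extracellular matrix protein, at -0.29 (0.128), below every control in every knockout mouse. *Vipr1*, a receptor for vasoactive intestinal peptide, was also lower among these stellate cell markers, at -0.33 (0.171). Their part in the values of *Lrat* was not tested. *Pdgfrb* did not pass when any 1 of controls 1 to 4 or of knockout mice 1, 3, 4 and 6 was left out (limma adjusted p of 0.0511 to 0.131).

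**Figure D1:**
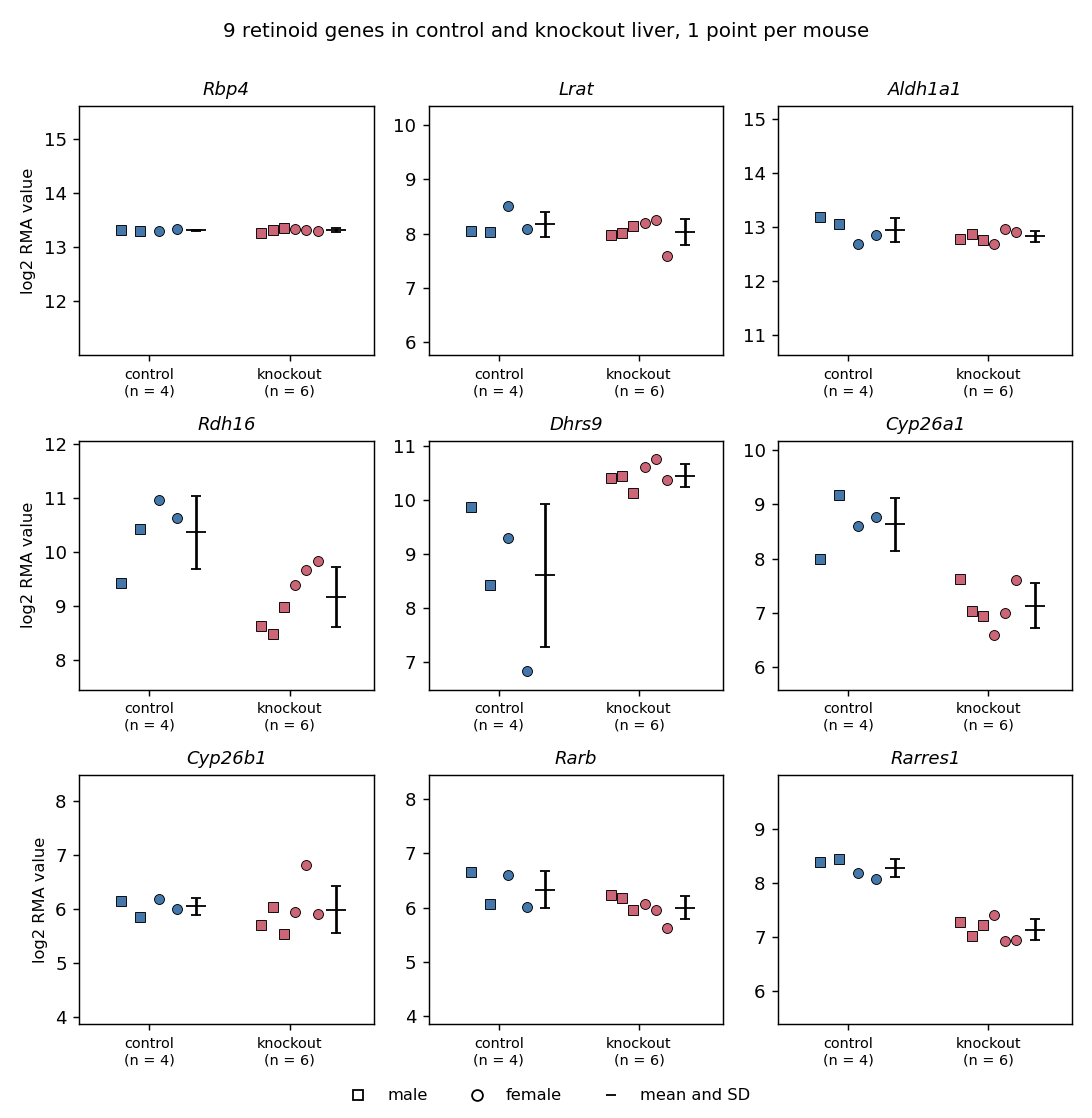
Log2 expression of the 9 retinoid genes in each mouse, with control mice in blue, knockout mice in red, squares for males, circles for females, and the mean and SD of each group beside the points; every panel spans the same number of log2 units. *Dhrs9* lies higher and *Cyp26a1* and *Rarres1* lie lower in all 6 knockout mice than in any control, *Rdh16* is lower in knockout mice than in controls of the same sex, and the other 5 genes overlap.

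Of the enzymes that oxidise retinol, *Rdh16* was lower and *Dhrs9* higher in knockout liver. *Rdh16* is a short-chain dehydrogenase of liver that acts on retinol and on hydroxysteroids (chromosome 10, probe set 17238172). It was at 9.42 and 10.43 in control males and 10.97 and 10.63 in control females. In knockout mice it was at 8.64, 8.49 and 8.99 in males and 9.39, 9.67 and 9.84 in females. Every knockout mouse was below both controls of its own sex, although knockout females 5 and 6 exceeded control male 1. The log2 difference was -1.19 (standard error 0.18), which is 2.28-fold lower in knockout liver.

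*Dhrs9*, whose human and rat enzymes oxidise retinol and hydroxysteroids in epithelia (chromosome 2, probe set 17371427), was at 9.87 and 8.43 in control males and 9.30 and 6.84 in control females. In knockout mice it was at 10.41, 10.43 and 10.13 in males and 10.60, 10.74 and 10.36 in females. All 6 knockout mice lay above all 4 controls. The control mice were far apart (SD 1.32, n = 4) and the knockout mice close together (SD 0.21, n = 6). The difference was 1.84 (standard error 0.44), which is 3.57-fold, and it was 1.21 without control 4, the lowest mouse.

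*Dhrs9* is also known from human macrophages, and markers of both bile duct cells and macrophages were higher in knockout mice, though not all passed in limma. The 6 measured bile duct markers averaged 5.55 to 5.75 per control mouse and 6.19 to 6.53 per knockout mouse, without overlap, and 4 passed as higher, among them *Epcam*, an adhesion protein of bile duct epithelium (1.14, limma adjusted p = 0.000996). The 10 macrophage markers averaged 8.84 to 9.41 in control and 9.46 to 10.02 in knockout mice, also without overlap. Of these 10, 4 passed as higher, among them *C1qa*, a chain of complement C1q (0.57, limma adjusted p = 0.0181). Without control 2 or control 4 *C1qa* did not pass (limma adjusted p = 0.0767 and 0.0756). Differences ran from 0.35 to 1.14 in the bile duct list and from 0.46 to 1.21 in the macrophage list. An unadjusted p under 0.05 in limma was found for 5 of the 6 bile duct markers and 10 of the 10 macrophage markers. The same held for 3841 of all 22180 genes. No marker of either list passed as lower. Their part in the difference of *Dhrs9* was not tested.

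*Aldh1a1*, the retinaldehyde dehydrogenase of adult liver (chromosome 19, probe set 17358103), was at 13.19 and 13.05 in control males and 12.68 and 12.86 in control females. It was at 12.78, 12.86 and 12.76 in knockout males and 12.68, 12.97 and 12.91 in knockout females. The 2 control males were higher than all other mice and the remaining values overlapped. The difference over all mice was -0.12 (standard error 0.10, 95% interval -0.34 to 0.10).

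*Cyp26a1*, the main retinoic acid hydroxylase of liver (chromosome 19, probe set 17359088), was lower in knockout liver. Its log2 values were 7.99 and 9.18 in control males, 8.61 and 8.76 in control females, 7.63, 7.04 and 6.93 in knockout males and 6.58, 6.99 and 7.61 in knockout females. All 6 knockout mice were below all 4 controls, and control male 1 was the control nearest to them. The difference of -1.50 (standard error 0.25), 2.84-fold lower, was the 49th largest in size of the 22180 genes. *Cyp26b1*, its relative on chromosome 6 (probe set 17468286), was at 6.14, 5.86, 6.19 and 5.99 in control mice 1 to 4. It was at 5.71, 6.03 and 5.53 in knockout males and 5.95, 6.81 and 5.90 in knockout females. Knockout female 5 was the highest mouse, the groups overlapped and the difference was -0.06 (standard error 0.18, 95% interval -0.45 to 0.33).

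Some hepatocyte genes are expressed around the central vein, and markers of these cells were partly lower in knockout mice. The 9 pericentral markers averaged 9.69 to 10.01 per control mouse and 9.18 to 9.87 per knockout mouse. Of them *Tbx3*, a transcription factor (-0.82, limma adjusted p = 0.0127), and *Slc1a2*, a glutamate transporter (-0.82, limma adjusted p = 0.0400), passed as lower. The other 7 did not pass and none passed as higher. Differences of the 9 ran from -0.82 to 0.06, and 5 of the 9 had an unadjusted p under 0.05 in limma, all of them lower. *Tbx3* did not pass without control 2 or 4 (limma adjusted p = 0.0606 and 0.0555), and *Slc1a2* did not pass when any 1 of the controls or of knockout mice 1, 2 and 4 was left out (0.0724 to 0.0962). The 5 measured periportal markers averaged 11.21 to 11.52 in control and 11.27 to 11.54 in knockout mice, and 0 of 5 passed in limma (1 at an unadjusted p under 0.05). The part of either list in the difference of *Cyp26a1* was not tested.

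Of the genes named for their response to retinoic acid, *Rarres1* was lower in every knockout mouse and *Rarb* overlapped. *Rarb* encodes the retinoic acid receptor beta (chromosome 14, probe set 17303609) and was at 6.65 and 6.07 in control males and 6.60 and 6.01 in control females. It was at 6.23, 6.18 and 5.95 in knockout males and 6.07, 5.95 and 5.62 in knockout females. Controls 1 and 3 were higher than all other mice, and the difference was -0.33 (standard error 0.15, 95% interval -0.66 to -0.00). It was -0.19 without control 3 and -0.46 without control 2. Which *Rarb* transcripts the probe set reads was not stated. *Rarres1*, the retinoic acid receptor responder 1, is named for its induction by a synthetic retinoid in human skin (chromosome 3, probe set 17405746). It was at 8.39, 8.45, 8.18 and 8.08 in control mice 1 to 4, at 7.28, 7.01 and 7.23 in knockout males and at 7.41, 6.93 and 6.95 in knockout females. The groups did not overlap and each was narrow. The difference was -1.14 (standard error 0.11), 2.20-fold lower, with SDs of 0.17 in control and 0.20 in knockout mice.

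By limma over all genes, with genotype and sex as terms and Benjamini-Hochberg adjustment at 0.05, *Cyp26a1*, *Rdh16* and *Rarres1* were among the 1.14% of genes called lower in knockout liver and *Dhrs9* among the 3.11% called higher, while the other 5 were not called, where 4.25% of all genes were called in either direction. Every knockout mouse lay above every control in 3.39% of all genes and below every control in 1.93%, and above or below both controls of its own sex in 5.2% and 3.72%. The 9 genes were chosen on this contrast, so nothing is read from these counts. The median difference was -0.14 over the 9 genes and -0.01 over all genes. The call of *Dhrs9* was lost without control 2 and without each of knockout mice 1, 2, 4, 5 and 6, when 0 of the 9 were called higher.

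*Cyp26a1* and *Rarb* are shown with the sequence in their promoter windows that matches a retinoic acid response element, because receptors for retinoic acid bind such elements. The element is a direct repeat of the half-site, spelled AGGTCA or AGTTCA or GGGTCA or GGTTCA in either copy, with 5 bases between the copies, and it was searched on both strands of the RefSeq windows (GRCm38.p6) that run from 250 bases before to 50 bases after each transcript start. The lines give 30 bases around each match, read on the strand of the match, with the half-sites in capitals.
*Cyp26a1*, chr19:37697769-37697798, minus strand: caaattAGTTCAcccaaAGTTCAtctttaa
*Rarb*, chr14:16575506-16575535, minus strand: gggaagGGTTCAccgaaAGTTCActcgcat
Counted from the transcript start that its window is built on, the match spans positions -32 to -16 in *Cyp26a1*, on the strand opposite to the gene, and positions -53 to -37 in *Rarb*, on the strand of the gene. That start lies 70 bases downstream of the outermost annotated start of *Cyp26a1* and 506855 bases downstream of that of *Rarb*, so both matches lie within the annotated gene, and the arrays do not show which start was used. The second half-site was the same in both. Such a repeat was present in 32 of 32851 windows (0.0974%), and of the 11 windows of the 9 genes it was in these alone. Repeats with 1 or 2 bases between the same half-sites, present in 0.222% and 0.268% of windows, were in no window of the 9 genes. A match is a description of the letters and not of binding, and none of these arrays measured binding.

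The difference by genotype did not pass a test between the sexes for any of the 9 genes. In males and females in turn it was -1.38 and -1.63 for *Cyp26a1* (standard error 0.36 in each), -1.22 and -1.16 for *Rdh16* (0.27 in each), -1.25 and -1.03 for *Rarres1* (0.15 in each), and 1.17 and 2.50 for *Dhrs9* (0.58 in each). The difference between the sexes for *Dhrs9* was 1.33 (95% interval -0.48 to 3.13, limma adjusted p = 0.876), in which control female 4 with 6.84 is 1 of 2 female controls. For *Aldh1a1* the genotype difference was -0.32 in males and 0.08 in females, and the difference of 0.40 between the sexes had an unadjusted p under 0.05 but a limma adjusted p of 0.801. In limma 0 of the 9 genes passed this test (1 at an unadjusted p under 0.05), as did 0.00451% of all genes. Of all 22180 genes, 1361 had an unadjusted p under 0.05 in it. With 2 controls in each sex, the intervals for the difference between sexes are wide, and they reach from -1.36 to 0.87 for *Cyp26a1* and from -0.78 to 0.89 for *Rdh16*.

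**Figure D2:**
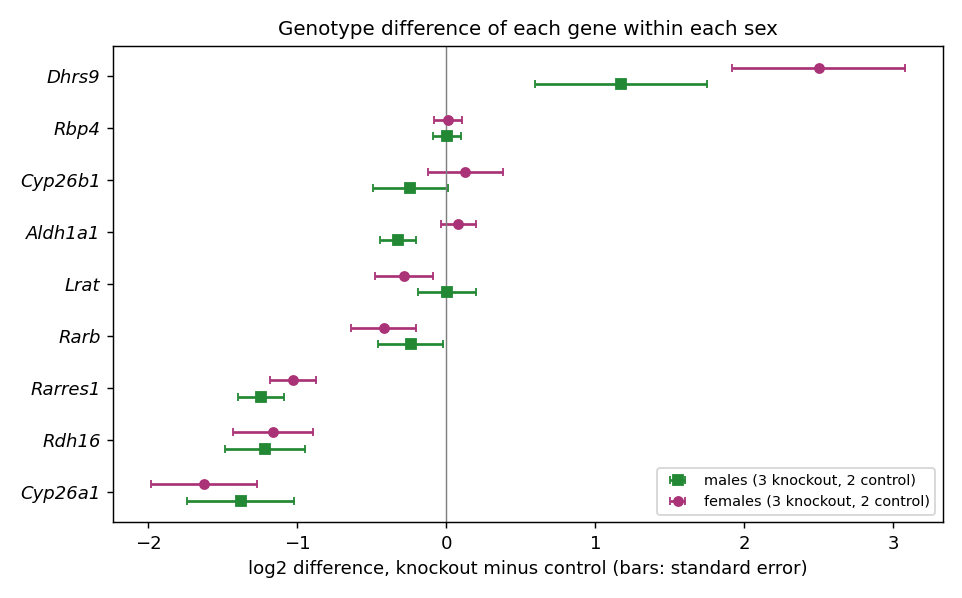
Log2 difference between knockout and control mice within males (green squares) and within females (purple circles) for each of the 9 genes, with bars for the standard error from the limma fit of the 4 groups of genotype and sex. *Cyp26a1*, *Rdh16* and *Rarres1* lie left of 0 and *Dhrs9* right of 0 in both sexes, with *Dhrs9* at 1.17 in males and 2.50 in females.

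The comparison of the sexes did not enter the choice of the genes. Female livers had more *Rdh16* RNA in both genotypes, with means of 9.93 in control males, 10.80 in control females, 8.71 in knockout males and 9.64 in knockout females. The difference, female minus male, was 0.91 (standard error 0.18, 95% interval 0.52 to 1.29), with a limma adjusted p of 0.0535 over all genes that did not pass. It passed without control 2 (1.07, limma adjusted p = 0.0127). The other 8 genes differed between the sexes by -0.29 to 0.31, with limma adjusted p of 0.520 to 0.982. In limma 0 of the 9 genes passed the test for sex (1 at an unadjusted p under 0.05), as did 0.491% of all genes. Of all 22180 genes, 2582 had an unadjusted p under 0.05 for sex.

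Beyond these 9 genes, 63 of 68 other genes of retinoid metabolism and signalling were measured, in 6 groups by role. Of the 63, *Aldh1b1* was higher, *Pnpla3* and *Ces1d* were lower and the remaining 60 were not called by limma, against 3.11% of all genes higher and 1.14% lower. An unadjusted p under 0.05 in limma was found for 17 of the 63 and for 3841 of all 22180 genes. Their median difference was -0.09, and that of all genes was -0.01. Without control 2 or control 4, 0 were higher, without control 3 or knockout 6 there were 2 and without knockout 1 there were 3, while without control 1 there were 6 lower genes.

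In retinyl ester and carotenoid handling, 2 of 12 genes passed as lower, 0 passed as higher and 10 did not pass. Of the 12, 3 had an unadjusted p under 0.05 in limma. Besides the 2 lower genes this was *Lpl*, at 0.83 (standard error 0.22, limma adjusted p = 0.0627). *Pnpla3* encodes a lipase of lipid droplets that in human stellate cells cleaves retinyl esters. It was at 5.75 and 6.98 in control males, 7.45 and 7.21 in control females, 5.67, 5.19 and 4.83 in knockout males and 5.66, 5.68 and 5.43 in knockout females. All knockout mice were below all controls, with control male 1 nearest to them, and the difference was -1.43 (standard error 0.23, limma adjusted p = 0.00794). *Ces1d*, a carboxylesterase of hepatocytes that can cleave retinyl esters, was at 9.70, 9.97, 9.83 and 10.06 in control mice 1 to 4, at 9.44, 9.31 and 9.10 in knockout males and at 9.51, 9.29 and 9.32 in knockout females. The groups did not overlap, and the difference was -0.56 (standard error 0.10, limma adjusted p = 0.00947). The abundant genes of this group *Ces1g* (-0.00, limma adjusted p = 0.991), *Lipa*, the lysosomal acid lipase (-0.04, limma adjusted p = 0.890), and *Scarb1*, the lipoprotein receptor that takes up carotenoids (0.10, limma adjusted p = 0.640), did not pass.

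**Figure D3:**
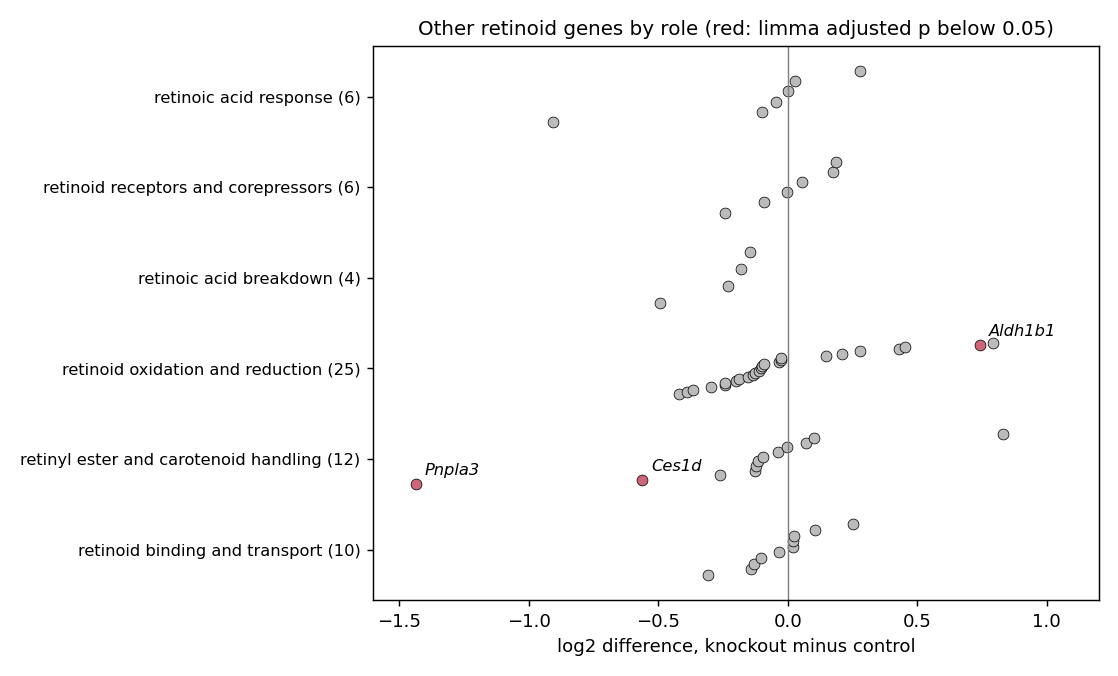
Log2 difference, knockout minus control, of the 63 other retinoid genes, 1 point per gene in rows by role with the number of measured genes in brackets, and genes past the limma threshold in red with their names. *Pnpla3* at -1.43 and *Ces1d* at -0.56 are lower, *Aldh1b1* at 0.74 is higher, and the remaining 60 points are grey.

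In retinoid oxidation and reduction, 1 of 25 genes was higher, 0 were lower and 24 did not pass. Of the 25, 8 had an unadjusted p under 0.05 in limma, and differences ran from -0.42 to 0.79. *Aldh1b1*, a mitochondrial aldehyde dehydrogenase that can oxidise retinaldehyde, was at 7.14 and 7.06 in control males, 7.98 and 7.64 in control females, 8.25, 8.04 and 7.86 in knockout males and 8.12, 8.22 and 8.68 in knockout females. Every knockout mouse was above both controls of its own sex, while control female 3 exceeded knockout male 3. The difference was 0.74 (standard error 0.14, limma adjusted p = 0.0133), and it did not pass without control 2 (limma adjusted p = 0.0625) or control 4 (0.0555). The most abundant genes of the group, the alcohol dehydrogenase *Adh1* (-0.11, limma adjusted p = 0.524), the liver retinol dehydrogenase *Rdh7* (-0.15, 0.302) and *Aldh8a1*, an aldehyde dehydrogenase of 9-cis-retinal (-0.24, 0.155), did not pass. Of these, *Aldh8a1* lay below every control in every knockout mouse. *Rdh16* belongs to a family of closely related genes with *Rdh16f2*, *Rdh1*, *Rdh7*, *Rdh9* and *Rdh19*, and the extent to which a probe set of one detects RNA of another is unknown here. The differences were -0.39 for *Rdh16f2*, -0.10 for *Rdh1*, 0.43 for *Rdh9* and 0.21 for *Rdh19*, and these did not pass (limma adjusted p of 0.103 to 0.660). *Rdh1* and *Rdh19* read no higher than probe sets without target.

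In retinoic acid breakdown 0 of 4 genes passed in limma (2 at an unadjusted p under 0.05). *Cyp26c1*, the third CYP26 enzyme, read 4.02 to 4.54 in all mice, which lies within or next to the range of probe sets without target, and *Cyp2c39*, a mouse hydroxylase of retinoic acid, had a difference of -0.49 (standard error 0.13, limma adjusted p = 0.0602). *Cyp2c29* (-0.15, limma adjusted p = 0.451) and *Cyp2s1* (-0.18, 0.440) completed the group. In binding and transport 0 of 10 genes passed in limma (2 at an unadjusted p under 0.05). These 2 were *Rlbp1* (-0.31, limma adjusted p = 0.0509), below every control in every knockout mouse, and *Rbp2* (0.25, 0.233). Both read close to probe sets without target. The abundant *Ttr*, transthyretin, which carries RBP4 in blood, was at -0.10 (limma adjusted p = 0.499). *Stra6l*, a liver receptor for RBP4, was at 0.11 (0.538), and *Fabp5*, a fatty acid binding protein that also carries retinoic acid, at -0.14 (0.909). *Fabp5* was at 7.86 in control 3 and at 5.03 to 5.29 in the other controls, and without control 3 its difference turned to 0.52 (limma adjusted p = 0.204). Of the receptors and corepressors 0 of 6 passed, with 0 at an unadjusted p under 0.05, namely *Rara* (0.17), *Rarg* (0.19), *Rxra* (-0.09), *Rxrb* (-0.00), *Rxrg* (-0.24) and *Nrip1* (0.06). Of the 6 measured genes of retinoic acid response 0 passed in limma (2 at an unadjusted p under 0.05), with *Tgm2*, transglutaminase 2, at 0.28 (limma adjusted p = 0.209), *Nr2f2*, an orphan nuclear receptor, at 0.03 (0.921), and *G0s2*, a lipase inhibitor, at -0.91 (0.0710).

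Between the sexes, 2 of the 63 other genes passed the limma test and both were higher in females, where 0.284% of all genes were higher and 0.207% lower. *Rdh16f2* was at 8.27 and 9.08 in control males, 10.38 and 10.25 in control females, 7.50, 8.56 and 8.83 in knockout males and 9.68, 9.75 and 10.29 in knockout females. All females were above all males, and the difference was 1.62 (standard error 0.24, limma adjusted p = 0.0114). *Cyp2c39* was at 7.04 and 7.18 in control males, 8.27 and 8.27 in control females, 6.94, 6.33 and 6.37 in knockout males and 7.66, 8.11 and 7.78 in knockout females. The sexes did not overlap, and the difference was 1.25 (standard error 0.13, limma adjusted p = 0.000699). The genotype difference of neither gene passed a test between the sexes (limma adjusted p = 0.995 for *Rdh16f2* and 0.966 for *Cyp2c39*).

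**Figure D4:**
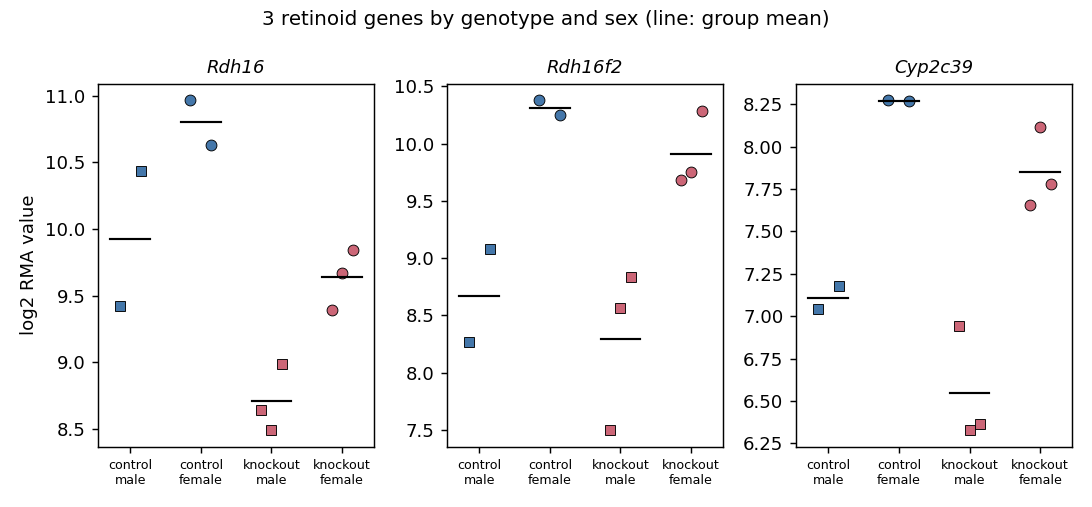
Log2 expression of *Rdh16*, *Rdh16f2* and *Cyp2c39* in each mouse by genotype and sex, with a line at the mean of each group. For *Rdh16f2* and *Cyp2c39* all 5 females lie above all 5 males, and for *Rdh16* the females lie above the males within each genotype.

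The genes whose pattern over the 10 mice was most like that of a member were found by Pearson's r over all other genes. The mice share groups of genotype and sex, so r was also computed on deviations from the 4 group means. For *Cyp26a1* they were *Pgrmc2* (r = 0.97, 0.88 within groups), *Gfm1* (0.97, 0.94 within groups) and *Cops3* (0.97, 0.86 within groups). For *Rdh16* they were *Abhd15* (r = 0.98, 0.82 within groups), *Csrp3* (0.97, 0.71 within groups) and *Dpf3* (0.95, 0.77 within groups). For *Dhrs9* they were *Cdc42se2* (r = 0.97, 0.94 within groups), *Rgs19* (0.95, 0.86 within groups) and *Cdh1* (0.95, 0.86 within groups). For *Rarres1* they were *L3mbtl2* (r = 0.96, 0.58 within groups), *Ggcx* (0.95, 0.285 within groups) and *Eci1* (0.95, 0.70 within groups). For *Rarb* they were *Txnl1* (r = 0.95, 0.98 within groups), *Eif5* (0.92, 0.89 within groups) and *Snord83b* (0.90, 0.84 within groups). Each r is the highest found among all other genes over only 10 mice and is given as a description. For *Rbp4*, *Lrat*, *Aldh1a1* and *Cyp26b1*, which varied little or overlapped, the highest r was 0.90 to 0.95.

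The remaining cell type lists give RNA levels of marker genes in bulk liver. Of 9 markers of activated stellate cells or fibroblasts 3 were higher and none lower, namely *Timp1*, an inhibitor of matrix metalloproteinases (mean 5.23 in control and 6.24 in knockout mice, limma adjusted p = 0.00794), and the collagens *Col3a1* (0.71, 0.0116) and *Col1a1* (0.91, 0.0266). The list averaged 6.08 to 6.48 per control mouse and 6.52 to 7.13 per knockout mouse. *Col3a1* did not pass without control 2 or 4 (limma adjusted p = 0.0547 and 0.0529), nor did *Col1a1* without control 2, 3 or 4 or knockout 4 (0.0625 to 0.104). Of 8 endothelial markers *Cdh5*, the vascular cadherin, was higher (0.34, limma adjusted p = 0.0373), and of 6 neutrophil markers *Csf3r*, the granulocyte growth factor receptor (0.50, 0.0239), while 0 of 7 measured lymphocyte markers passed in limma (0 at an unadjusted p under 0.05). *Cdh5* did not pass when any 1 of controls 2 to 4 or of knockout mice 1 to 5 was left out (limma adjusted p of 0.0523 to 0.140), nor did *Csf3r* without control 2, 3 or 4 or knockout 4 (0.0519 to 0.0981). The part of these lists in the differences of the retinoid genes was not tested.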

How the data were processed

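The deposited values are log2 expression per probe set, which the authors computed by RMA using oligo (background correction, quantile normalisation, summary of probes), in versions not stated. Of 41345 probe sets, 23521 carry 1 gene symbol, 1820 several and 16004 are unnamed here. Where a gene had several, as 1082 genes did, the probe set of highest mean stood for it, leaving 22180 genes. The gene identifiers of 23328 probe sets are in the RefSeq table (GRCm38.p6), which gave chromosomes and promoter windows.

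Genes were fitted with terms for genotype and sex in limma 3.58.1 under R 4.3.3, or with the 4 groups of genotype and sex for differences between the sexes. Tests were two-sided, with Benjamini-Hochberg adjustment over all genes at 0.05. The fit was checked on simulated data. The 9 genes and all lists were chosen with earlier results of these data known. Genes named were the 9, list genes past a test, up to 3 abundant others per role and up to 4 passing markers per list. *Rdh16* relatives, *Cyp26c1*, *Lpl*, *Rlbp1*, *Rbp2* and further non-passing genes of small groups were named after their values were seen. So were the non-passing stellate cell markers *Colec10*, *Ecm1*, *Vipr1*, *Rgs5*, *Des*, *Ngfr* and *Hgf*. Each array is labelled as a separate mouse, and their number limits the precision. No slide or scan date was given.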

Additional observations from a re-analysis of the deposited data

Results flagged for a closer look

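*Lrat* in control female 3, at a log2 value of 8.52, stood apart from the other 3 controls, of which the nearest was at 8.08. The gap to that mouse was 0.891 of the range of the 4 controls. This was 1 of 28 groups checked, and chance flags about 1 in 20 groups.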

How the results depend on the processing

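The 9 genes kept the direction of *Cyp26a1*, *Rdh16*, *Rarres1* and *Dhrs9* in all 19 alternatives, with differences of -1.76 to -1.30, -1.38 to -0.99, -1.22 to -1.07 and 1.21 to 2.26. The numbers printed in the labels were used as a replicate block, which left 0 of the 9 genes higher and 1 lower, 208 and 49 of all genes, and 2 and 0 of the other retinoid genes. *Pnpla3* (-1.14, adjusted p = 0.169), *Ces1d* (-0.49, 0.130), *Aldh1b1* (0.86, 0.0558) and the sex differences of *Rdh16f2* (0.93, 0.507) and *Cyp2c39* (1.39, 0.489) did not pass with it. Numbers 1, 2 and 4 have the same sex in both genotypes, and numbers 5 and 6 occur only in knockout mice. With the block the sex term therefore rests on number 3 alone, so its sex tests cannot show whether a sex difference holds. Knockout mice 5 and 6 do not enter its genotype differences, and neither do the mice of number 3, which the sex term uses up. The genotype differences with the block therefore rest on numbers 1, 2 and 4 alone. Same-numbered mice correlated at -0.12 to 0.14 in their deviations from the group means, with the own number best in 1 of 4, so the numbers are not shown to pair mice. With no sex term 2 of the 9 genes and 165 of all genes were lower, and 0 other retinoid genes were higher (*Aldh1b1*, adjusted p = 0.0573). With trend and robust moderation 0 of the 9 genes were higher. With array weights 499 of all genes were lower, and 3 other retinoid genes were higher and 6 lower. With genes of mean log2 of at least 5 only, 2 other retinoid genes were higher and 1 of the 9 genes, *Rdh16*, passed for sex (adjusted p = 0.0454). With 1 mouse left out, the 9 genes gave 0 to 1 higher and 3 to 3 lower in genotype. They gave 0 to 1 for sex and 0 to 0 for the difference between sexes. The 9 genes were chosen on the genotype contrast, so nothing is read from their genotype counts under any of these settings. With 1 mouse left out, all genes gave 233 to 825 higher and 47 to 449 lower, and other retinoid genes 0 to 3 higher and 2 to 6 lower. Of all genes, 690 were higher, and leaving out control 2, 3 or 4 gave 233, 448 or 244, and leaving out knockout 2 or 4 gave 440 or 372. Of all genes, 252 were lower, and leaving out control 1, 2, 3 or 4 gave 449, 47, 114 or 77, and leaving out knockout 2, 4 or 5 gave 115, 113 or 144. With the block *Rarb* was at -0.08, *Lrat* at 0.01 and *Aldh1a1* at -0.26, and with array weights *Rarb* was at -0.23. The named marker genes and *Fabp5* were run under the same alternatives, chosen after seeing the data: with the block *Epcam* and *Tbx3* passed, as did *Slc1a2*, and *Pdgfrb*, *C1qa*, *Timp1*, *Col3a1*, *Col1a1*, *Cdh5* and *Csf3r* did not (adjusted p of 0.0791 to 0.279). With no sex term *Pdgfrb* (0.0603), *Slc1a2* (0.123) and *Cdh5* (0.0864) did not pass, nor *Cdh5* with arrays centred on the median (0.0535). The cause was not tested. Other probe set choices changed no value of the 9 genes, which have 1 probe set each that carries the symbol alone. For *Rdh16*, 1 further probe set carries several symbols, and it was not used in any of these choices.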

Other observations

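Other genes with the response element of *Cyp26a1* and *Rarb* in their promoter windows were described as well. The direct repeat with 5 bases between the half-sites was found for 31 genes, of which 13 were measured here, 11 of them besides *Cyp26a1* and *Rarb*. In limma 0 of the 11 passed for genotype, where 4.25% of all genes were called in either direction, so nothing is read from this count. An unadjusted p under 0.05 in limma was found for 3 of the 11 and for 3841 of all 22180 genes. Their differences ran from -0.33 to 0.63 with a median of 0.01, where the median of all genes was -0.01. The lowest was *Blvrb*, biliverdin reductase B (-0.33, standard error 0.10, limma adjusted p = 0.104), and the highest *Ppbp*, a platelet chemokine (0.63, standard error 0.21, limma adjusted p = 0.123). *Tnfsf13b*, a B cell survival factor, was at 0.23 (limma adjusted p = 0.188). This search was made after the values of *Cyp26a1* and *Rarb* were seen.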
